A study of Mus musculus with 2 samples.

Results

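The genes described here are 9 lymphocyte genes, Gata3, Rora, Tbx21, Foxp3, Ctla4, Icos, Il2ra, Tnfrsf4 and Tnfrsf18, out of 33904 genes listed in both count matrices. They were chosen by name. Single-cell RNA-seq was performed on dorsal skin of female C57BL/6J mice, 7 weeks old, depilated 24 h before the first application. In the Ctrl library, 100% ethanol alone was applied daily, and in the AD library MC903 (calcipotriol, a vitamin D analogue) in ethanol, at 4.5 nmol per application, and both were taken on day 10. MC903 is used to induce AD-like dermatitis in mice. Each condition has 1 library, and how many mice each library holds is not given in the sources used here, so the difference between AD and Ctrl has no replicate check and no test was made. Cells were not sorted, dead cells were removed, and all 95% intervals in parentheses cover counting error only.

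T cells read antigen through a receptor that is carried to the surface by the Cd3 proteins, and most carry an alpha-beta receptor while a resident population of mouse skin carries a gamma-delta receptor. Lineage factors set what a T cell or an innate lymphoid cell can do: Gata3 directs type 2 responses, Tbx21 (T-bet) type 1 responses, Rora is needed for group 2 innate lymphoid cells and acts in several T cell subsets, and Foxp3 defines regulatory T cells (Tregs). Activation brings receptors to the surface, among them the costimulators Icos, Tnfrsf4 (OX40) and Tnfrsf18 (GITR), the inhibitor Ctla4 and the high-affinity chain of the IL2 receptor, Il2ra (CD25), and Tregs carry several of them at rest. AD is a disease of type 2 immunity, and OX40 with its ligand is a pathway that is targeted in it.

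In GRCm38 (mm10), 4 of the 9 genes lie in 2 neighbouring pairs. Ctla4 (chr1:60887000-60915832) and Icos (chr1:60977927-61000320), both on the plus strand and both of the Cd28 family of receptors, are 62094 bases apart. Tnfrsf4 (chr4:156013843-156016612) and Tnfrsf18 (chr4:156026164-156028895), both on the plus strand and both of the TNF receptor family, are 9551 bases apart. Gata3 (chr2:9857078-9890034, minus strand) and Il2ra (chr2:11642807-11693193, plus strand) share chromosome 2, and Rora (chr9:68653786-69388246, plus strand), Tbx21 (chr11:97098071-97115331, minus strand) and Foxp3 (chrX:7573644-7595245, plus strand) lie alone. RefSeq (GRCm38.p6) gave the 250 bases before the start of 8 of the 9 genes, in 9 sequences since Foxp3 has 2 starts, and none for Icos. The sequences of Tnfrsf4 and Tnfrsf18 are shown because these neighbours were each among the 3 genes most like the other across cell classes (given further on). For Foxp3, which is used further on to split the alpha-beta T cells, 1 of its 2 sequences is shown. Each printed sequence runs 5′ to 3′. Capitals mark matches, on either strand, to the motifs searched. These were TTCNNNGAA for STAT factors, AGATAA for the GATA family, TGANTCA for AP-1, AGGTCA for ROR factors and GTAAACA for forkhead factors.
Tnfrsf4 (chr4:156013445-156013694, plus strand): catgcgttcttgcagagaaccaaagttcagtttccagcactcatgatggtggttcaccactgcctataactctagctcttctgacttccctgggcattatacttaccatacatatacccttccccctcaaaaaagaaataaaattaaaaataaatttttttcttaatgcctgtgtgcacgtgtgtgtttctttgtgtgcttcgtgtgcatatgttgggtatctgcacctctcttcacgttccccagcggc
Tnfrsf18 (chr4:156026072-156026321, plus strand): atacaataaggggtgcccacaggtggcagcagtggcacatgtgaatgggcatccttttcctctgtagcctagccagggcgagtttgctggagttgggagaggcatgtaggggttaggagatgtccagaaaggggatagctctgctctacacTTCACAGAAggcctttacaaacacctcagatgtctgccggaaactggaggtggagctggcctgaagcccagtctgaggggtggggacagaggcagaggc
Foxp3 (chrX:7580233-7580482, plus strand): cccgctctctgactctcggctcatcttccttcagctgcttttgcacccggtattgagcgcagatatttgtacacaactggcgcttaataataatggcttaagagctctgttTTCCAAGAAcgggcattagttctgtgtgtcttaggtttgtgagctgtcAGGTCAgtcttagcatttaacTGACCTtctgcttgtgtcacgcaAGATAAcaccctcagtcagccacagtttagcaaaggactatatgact
Tnfrsf4 had no match in this window and Tnfrsf18 had 1 STAT match. The printed Foxp3 window had 1 STAT match, 1 GATA match and 2 ROR matches, which did not overlap each other. Of 32851 RefSeq windows of this length, 7.02% held the STAT motif, 9.99% the GATA motif, 6.75% the AP-1 motif, 14.0% the ROR motif and 3.17% the forkhead motif. The other 6 sequences had no match, among them the other Foxp3 window (chrX:7579426-7579675), so the Foxp3 matches hold for 1 of its 2 starts. A match describes letters only and says nothing of binding.

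Lymphocytes were taken by gates on UMIs, the distinct transcript molecules counted per cell. The alpha-beta T gate asked for at least 2 UMIs of Trac, Trbc1 and Trbc2 together and none of Trdc, and held 997 Ctrl cells and 428 AD cells. The gamma-delta T gate asked for at least 1 Trdc UMI and held 328 and 133 cells. The Cd3-negative Il7r-positive gate, meant for innate lymphoid cells, held 48 and 52. The kept cells numbered 11399 in Ctrl and 8179 in AD, with medians of 7813 and 6330 UMIs. Of the kept cells, 29 barcodes occurred in both libraries, none of them in these 3 gates. Levels are CPM, counts per 1000000, that is the UMIs of 1 gene over all UMIs in the cells of a class and library.

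The alpha-beta gate went against its name in Ctrl. Of its 997 Ctrl cells, 556 had no UMI of Cd3d, Cd3e or Cd3g, with a median of 17630 UMIs per cell, against 94 of 428 in AD, with a median of 8301.5. The genes that led these Ctrl cells were Krt1, Krt10, Krt77 and Krtdap, genes of differentiating keratinocytes (KCs). The 8 T cell markers (Cd3d, Cd3e, Cd3g, Cd4, Cd8a, Cd8b1, Lck and Cd5) summed to 16.9 CPM in Ctrl and 57.2 CPM in AD in the cells without Cd3, with the 3 Cd3 genes at 0 by construction, and to 1631 CPM and 1560 CPM in the cells with Cd3. Among 399 Ctrl cells of the whole library with at least 50 UMIs of Krt1 and Krt10, 81.0% (76.7 to 84.7) had a Trbc2 UMI and 39.1% (34.3 to 44.1) a Trbc1 UMI, whereas 1.253% (0.408 to 2.90) had a Trac UMI, and 71.9% of them met the alpha-beta gate. In AD only 3 cells reached that keratin level. Trbc1 and Trbc2 are near-identical in sequence, so the split of reads between them is uncertain. The cells with both the receptor and a Cd3 UMI, 441 in Ctrl and 334 in AD, led with Icos, Cd28, Trac, Trbc2 and Cd3d in both libraries, and are called Cd3-positive alpha-beta T cells here. The 9 genes are given for both sets. Other cells' RNA also differed between the libraries in the Cd3-positive set: the 4 KC markers (Krt5, Krt14, Krt1, Krt10) summed to 2548 CPM in Ctrl and 59.6 CPM in AD, and the 4 fibroblast markers (Col1a1, Col1a2, Pdgfra, Dcn) to 6912 CPM and 963 CPM, with none of either list at 0. Their part in the results was not tested. Depth differed as well, with medians of 3374 UMIs in Ctrl and 6872 UMIs in AD, so that shares of cells with a UMI are also given after thinning each cell to 1000 UMIs.

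Within the alpha-beta gate as stated, 6 of the 9 genes were past 2-fold higher in AD and 0 were lower. The 6 were Foxp3 and all 5 receptors, beside 10.2% of all 13626 genes with at least 20 UMIs that were past 2-fold higher and 15.8% that were lower, 26.1% in all. The median log2 ratio was 1.80 over the 9 genes and -0.04 over all genes. With a Cd3 UMI also required, only Tnfrsf4 stayed past 2-fold higher, Tbx21 was past 2-fold lower, and Foxp3 turned from 2.40-fold higher to 0.739-fold, beside 2.85% of 11071 genes higher and 16.7% lower, 19.6% in all. The median log2 ratio was then 0.44 over the 9 genes and -0.24 over all genes. With the scaling of the TMM method, which moved all ratios of this set by the same step, Ctla4 and Tnfrsf4 were past 2-fold higher and none of the 9 was lower, and the share of higher genes among all genes past 2-fold went from 14.6% to 30.4%.

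**Figure D1:**
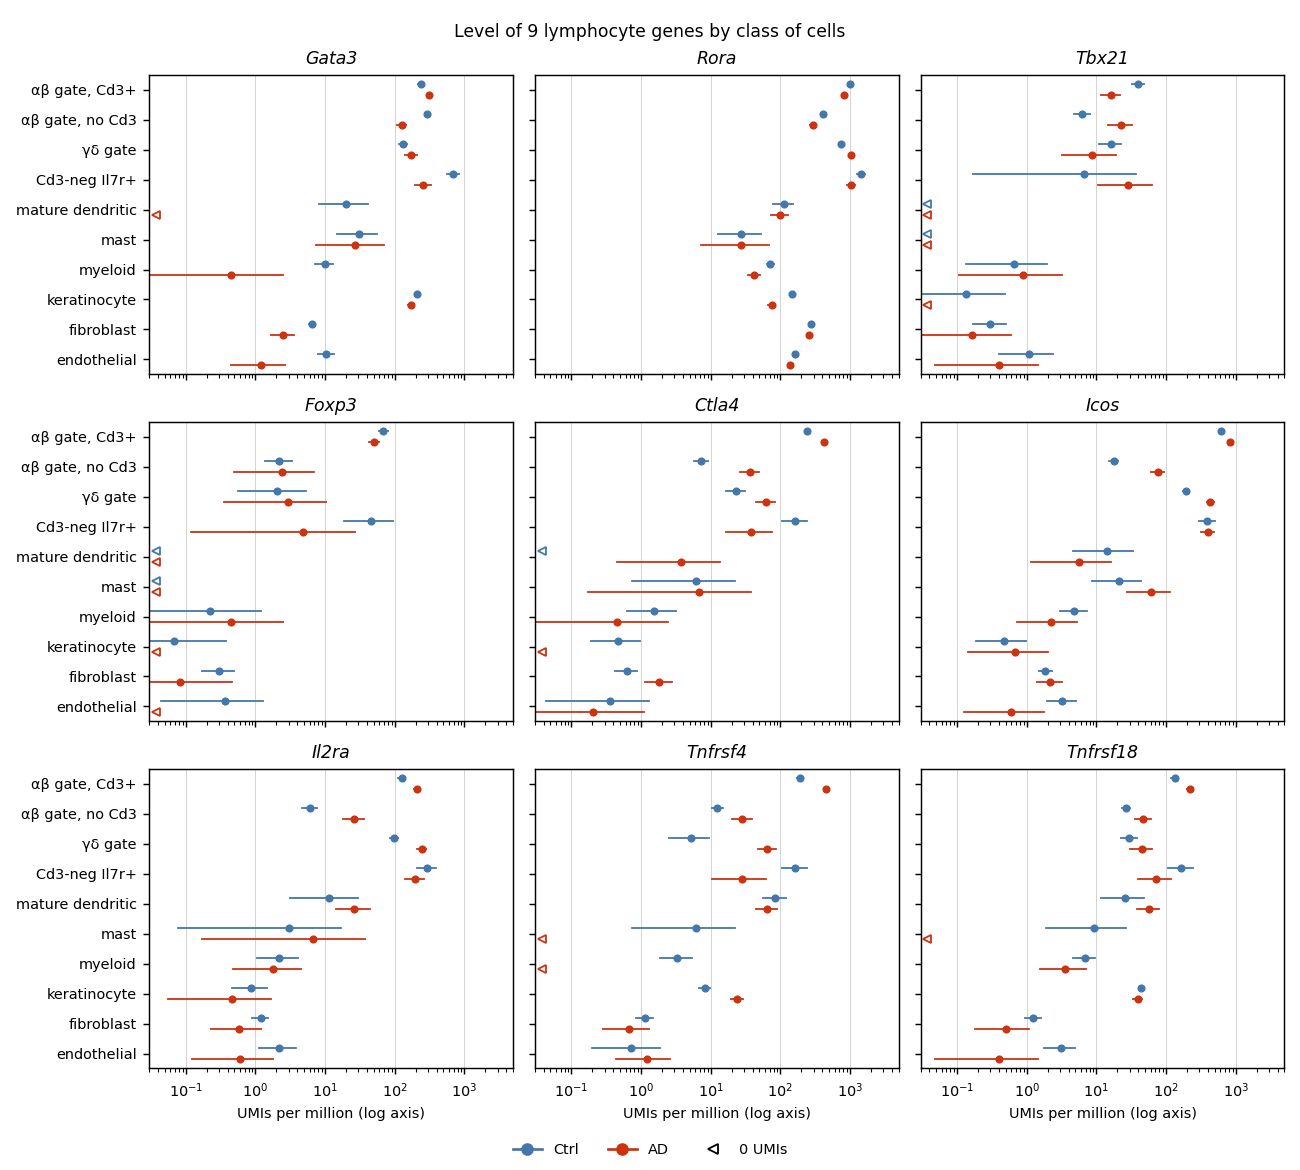
Level of each gene in CPM (log axis) in 10 classes of cells, with Ctrl in blue and AD in red, points for the level of 1 library, bars for the 95% Poisson interval and open triangles for 0 UMIs. Foxp3, Ctla4 and Icos were highest in lymphocytes, whereas Gata3 reached 212 CPM and 169 CPM in keratinocytes and Rora 279 CPM and 256 CPM in fibroblasts.

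Among the lineage factors, Gata3 had 553 UMIs in the Cd3-positive alpha-beta T cells of Ctrl, or 238 CPM, and 852 UMIs in AD, or 312 CPM. The ratio was 1.31 (1.18 to 1.46), so that AD was above Ctrl by less than 2-fold. In the gate without the Cd3 requirement, Gata3 was 284 CPM in Ctrl and 253 CPM in AD, the opposite order. Cells without Cd3 held 2929 of its 3482 Ctrl UMIs in that gate. Gata3 is also a factor of KC differentiation, and KCs held 34.3% of all its UMIs in Ctrl and 34.8% in AD, against 6.02% and 40.3% in the Cd3-positive alpha-beta T cells. The alpha-beta gate was applied before the KC gate. Its cells without Cd3, which led with KC genes in Ctrl, held a further 2929 of 9185 Ctrl UMIs and 159 of 2114 AD UMIs. The KC shares of the libraries are thus not like for like. In gamma-delta T cells Gata3 was 131 CPM in Ctrl and 172 CPM in AD, and in Cd3-negative Il7r-positive cells 685 CPM (559 to 829) in Ctrl, its highest level over the gated classes, and 257 CPM (193 to 335) in AD. In AD that level overlapped with the 253 CPM (238 to 269) of the alpha-beta gate.

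Rora, which encodes the nuclear receptor ROR alpha, was lower in AD in the Cd3-positive alpha-beta T cells, with 991 CPM from 2303 UMIs in Ctrl and 811 CPM from 2218 UMIs in AD. The ratio was 0.819 (0.772 to 0.868), within 2-fold. With TMM scaling of this set the log2 ratio of Rora went from -0.29 to -0.02. The gate as stated gave 523 CPM and 648 CPM, the opposite order. Gamma-delta T cells had 735 CPM in Ctrl and 1039 CPM in AD, a ratio of 1.41 (1.29 to 1.55). The highest Ctrl level of the gated classes was in the Cd3-negative Il7r-positive cells, 1435 CPM (1251 to 1639). The 991 CPM of the Cd3-positive alpha-beta T cells came next, above the 735 CPM (697 to 774) of the gamma-delta T cells. In AD the 1028 CPM (896 to 1175) of the Cd3-negative Il7r-positive cells and the 1039 CPM (964 to 1118) of the gamma-delta T cells overlapped. Rora was not particular to lymphocytes in its UMIs, since fibroblasts held 50.5% of them in Ctrl. In AD fibroblasts held 18.4% and cells in no gate 53.5%, and 7824 of the 8947 UMIs of the latter were in cells with Pdgfra or Pdgfrb, receptors of fibroblasts and mural cells.

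Tbx21 was the member past 2-fold lower in AD among Cd3-positive alpha-beta T cells. It had 92 UMIs in 71 of 441 Ctrl cells, or 39.6 CPM, and 44 UMIs in 35 of 334 AD cells, or 16.1 CPM, a ratio of 0.407 (0.277 to 0.588). The gate as stated gave 12.6 CPM and 18.03 CPM, a ratio of 1.44 (1.07 to 1.91) and the opposite order. Thinned to 1000 UMIs, Tbx21 was detected in 5.13% of Ctrl and 1.71% of AD cells. Its levels were low, and in gamma-delta T cells it had 31 UMIs in Ctrl and 6 in AD, or 16.03 CPM and 8.69 CPM, with an interval of the ratio that covers 1 (0.185 to 1.32). The gamma-delta T cells (16.03 CPM, 10.9 to 22.8) and the alpha-beta gate (12.6 CPM, 10.7 to 14.7) of Ctrl could not be ordered. The gate's level mixes 39.6 CPM in its Cd3-positive cells, above the gamma-delta T cells, with 6.24 CPM in its cells without Cd3.

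Foxp3 had 160 UMIs in 78 Cd3-positive alpha-beta T cells of Ctrl, or 68.9 CPM, and 139 UMIs in 48 cells of AD, or 50.9 CPM, a ratio of 0.739 (0.584 to 0.933). The share of cells with a Foxp3 UMI was 17.7% (14.2 to 21.6) in Ctrl and 14.4% (10.8 to 18.6) in AD, with overlapping intervals, and 8.13% and 5.19% after thinning. In fibroblasts, which should lack Foxp3, the share was 0.260% in Ctrl and 0.105% in AD at medians of 9087.5 and 11596.5 UMIs. A further 135 Ctrl cells and 82 AD cells in no gate had a Cd3 UMI but fewer than 2 receptor UMIs. Foxp3 was in 25.2% (18.1 to 33.4) of these in Ctrl and in 3.66% (0.761 to 10.3) in AD, so that the gate left out more Foxp3-positive cells in Ctrl, 34 against 3. The gate as stated gave 14.8 CPM and 35.6 CPM, and 22 and 3 of those UMIs were in cells without Cd3. Foxp3-positive cells were 93 of 997 in Ctrl and 51 of 428 in AD there. Gamma-delta T cells held 4 and 2 UMIs of Foxp3, too few for a ratio.

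Of the receptors, Tnfrsf4 was the member furthest above Ctrl in the Cd3-positive alpha-beta T cells of AD. It had 443 UMIs in 151 of 441 Ctrl cells, or 191 CPM, and 1244 UMIs in 210 of 334 AD cells, or 455 CPM, a ratio of 2.39 (2.14 to 2.67). The share of cells with a UMI was 34.2% (29.8 to 38.9) in Ctrl and 62.9% (57.4 to 68.1) in AD, and after thinning still 18.9% and 28.9%. In fibroblasts the share was 0.799% and 0.839%. The gate as stated gave 46.3 CPM and 321 CPM, a ratio of 6.93 (6.27 to 7.66). The Cd3-positive cells held 45.02% of all Tnfrsf4 UMIs of the Ctrl library and 80.7% of those of the AD library. Outside lymphocytes Tnfrsf4 was found in mature dendritic cells (83.2 CPM and 63.7 CPM, with overlapping intervals) and, at a low level, in KCs, with 8.19 CPM in Ctrl and 23.6 CPM in AD, a ratio of 2.89 (2.20 to 3.78).

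Tnfrsf18 was 133 CPM from 308 UMIs in Ctrl and 220 CPM from 601 UMIs in AD in the Cd3-positive alpha-beta T cells, a ratio of 1.66 (1.44 to 1.91). Thinned shares of cells were 15.5% and 18.0%. KCs held 38.2% of all its UMIs in Ctrl and 17.05% in AD, at 43.7 CPM and 39.3 CPM. A further 265 of 1704 Ctrl UMIs and 59 of 1003 AD UMIs were in the cells without Cd3 of the alpha-beta gate. In Ctrl the 46.8 CPM (43.0 to 50.7) of the alpha-beta gate and the 43.7 CPM (40.4 to 47.2) of KCs could not be ordered. That gate level mixes 133 CPM in its Cd3-positive cells, above the KCs, with 26.7 CPM in its cells without Cd3. In the AD library the gate stood alone at 165 CPM (153 to 178), a ratio to Ctrl of 3.54 (3.16 to 3.96).

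Ctla4, which competes with Cd28 for the ligands Cd80 and Cd86, had 566 UMIs in Ctrl, or 244 CPM, and 1160 UMIs in AD, or 424 CPM, in the Cd3-positive alpha-beta T cells. The ratio was 1.74 (1.57 to 1.93), and thinned shares of cells were 21.6% and 24.0%. The 54 UMIs of 1 AD cell were the most in any cell. The gate as stated gave 52.1 CPM and 302 CPM, a ratio of 5.79, and its Ctrl cells without Cd3 held 73 UMIs of Ctla4 among 9932485 UMIs of all genes.

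Icos, whose ligand is Icosl, was 611 CPM from 1420 UMIs in Ctrl and 829 CPM from 2266 UMIs in AD, a ratio of 1.36 (1.27 to 1.45). Thinned shares were 45.2% and 50.7%, and the gate as stated gave 130 CPM and 592 CPM, a ratio of 4.54 (4.26 to 4.84). Il2ra was 127 CPM from 296 UMIs and 207 CPM from 567 UMIs, a ratio of 1.63 (1.41 to 1.88), but its thinned share was 14.6% in Ctrl and 13.9% in AD, and 55 of the AD UMIs came from 1 cell. For Il2ra the level and the thinned share thus went in opposite directions. With all UMIs, 134 of 441 Ctrl cells and 154 of 334 AD cells had an Il2ra UMI, the direction of the level. The order of the share turned with depth, and no order is read from it. The gate as stated gave 29.05 CPM and 150.3 CPM for Il2ra, a ratio of 5.17 (4.53 to 5.92).

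**Figure D2:**
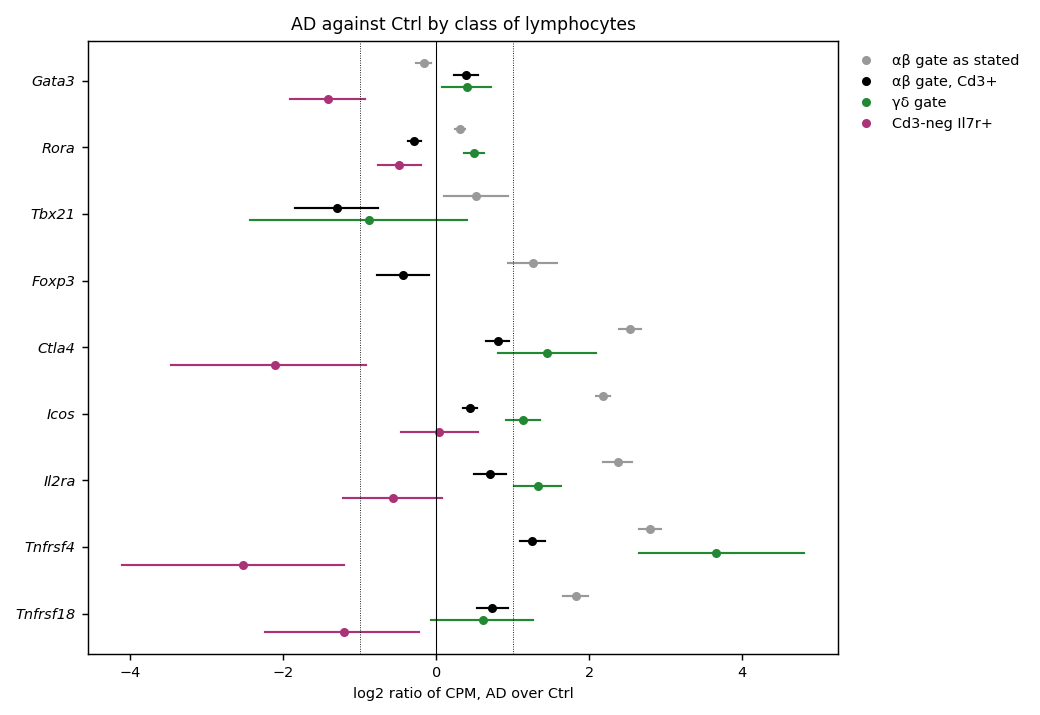
Log2 ratio of CPM of AD over Ctrl for each gene, with the alpha-beta gate as stated in grey, its Cd3-positive cells in black, gamma-delta T cells in green and Cd3-negative Il7r-positive cells in purple. Bars are 95% intervals for counting error, dotted lines mark 2-fold, and genes under 20 UMIs in a class are left out. Requiring Cd3 moved Foxp3 from 2.40-fold to 0.739-fold and Tnfrsf4 from 6.93-fold to 2.39-fold.

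The receptors were then counted cell by cell in the Cd3-positive alpha-beta T cells. None of the 5 had a UMI in 17.01% of cells in Ctrl and 3.89% in AD, and all 5 in 11.8% and 23.1%. After thinning to 1000 UMIs, none was found in 39.9% and 25.8%, and all 5 in 1.14% and 0.598%. The lower share of cells without any receptor in AD was present at both depths, whereas the order for cells with 4 or 5 receptors turned with depth. Among AD cells with a Tnfrsf4 UMI, 71.9% also had Ctla4 and 75.2% had Tnfrsf18, against 26.6% and 37.1% of AD cells without Tnfrsf4. In Ctrl the same shares were 76.8% and 64.9% with Tnfrsf4, against 15.5% and 25.2% without. The shares for pairs of genes are of all UMIs, without thinning, and the part of depth in them was not tested.

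**Figure D3:**
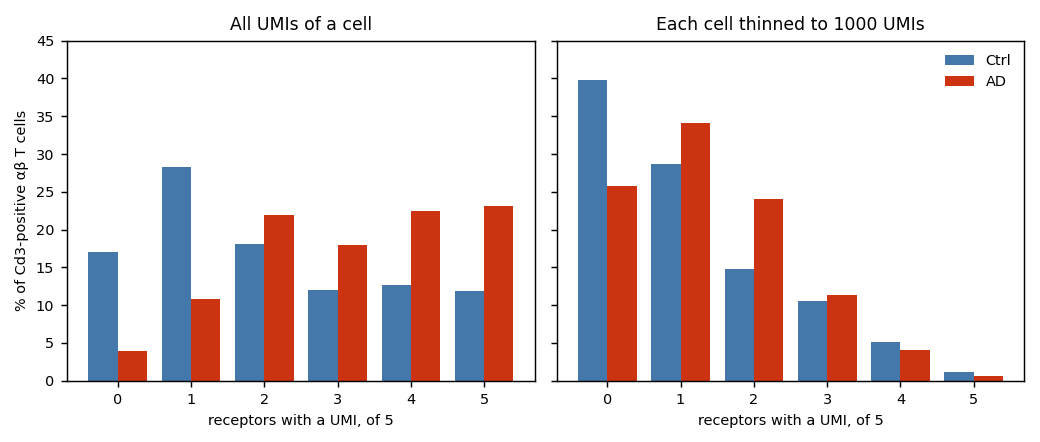
Share of Cd3-positive alpha-beta T cells (441 in Ctrl, blue, and 334 in AD, red) by how many of Ctla4, Icos, Il2ra, Tnfrsf4 and Tnfrsf18 had a UMI, with all UMIs on the left and with each cell thinned to 1000 UMIs on the right. Cells with none of the 5 made up 17.01% of Ctrl and 3.89% of AD with all UMIs, and 39.9% and 25.8% after thinning.

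The Cd3-positive alpha-beta T cells were split by Foxp3 and, where Foxp3 was absent, by Cd4 and Cd8 (Cd8a or Cd8b1). A cell with none of these UMIs may still express them, so these are ranges of detection and not cell types. Foxp3-negative cells with Cd4 only made up 17.5% (14.0 to 21.3) in Ctrl, 77 cells, and 38.0% (32.8 to 43.5) in AD, 127 cells. Cells with Cd8 only made up 27.2% (23.1 to 31.6), 120 cells, and 18.9% (14.8 to 23.5), 63 cells. Neither was found in 166 and 96 cells. These shares are of all UMIs, without thinning, and the set had medians of 3374 UMIs in Ctrl and 6872 UMIs in AD. In the cells with Cd4 only the medians were 2943 and 7740 UMIs. The part of depth in these shares was not tested.

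Foxp3-positive cells carried the receptors at a higher level than the pooled Foxp3-negative cells of the Cd3-positive set in both libraries. Ctla4 was 760 CPM in 78 Foxp3-positive Ctrl cells against 147 CPM in Foxp3-negative ones, and 1288 CPM in 48 AD cells against 276 CPM. Tnfrsf4 was 643 CPM against 106 CPM in Ctrl, and 959 CPM against 368 CPM in AD. Foxp3-negative cells with Cd4 only were nearer to the Foxp3-positive cells than this pool was. Their Ctla4 was 484 CPM in Ctrl and 339 CPM in AD. Their Icos was 908 CPM and 931 CPM, against 1182 CPM and 1021 CPM in Foxp3-positive cells. The share of Tnfrsf4 UMIs of the Cd3-positive set that lay in Foxp3-positive cells was 53.3% in Ctrl and 30.95% in AD. For Ctla4 these shares were 49.3% and 44.6%, and for Il2ra 43.2% and 46.0%. From Ctrl to AD within the Foxp3-positive cells, Ctla4 had a ratio of 1.69 (1.46 to 1.97), Il2ra of 1.86 (1.503 to 2.32) and Tnfrsf4 of 1.49 (1.27 to 1.76), and Icos was 1182 CPM and 1021 CPM. Rora alone of 8 genes tested was past 2-fold, with 1550 CPM in Ctrl and 740 CPM in AD, a ratio of 0.477 (0.413 to 0.550), beside 14% of 5592 genes that were past 2-fold lower and 7.6% higher. After thinning, Rora was detected in 80.7% of the Foxp3-positive cells of Ctrl and in 52.8% of those of AD.

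Foxp3-negative cells as a whole had 106 CPM of Tnfrsf4 in Ctrl and 368 CPM in AD, a ratio of 3.48 (2.99 to 4.07). It was past 2-fold beside 2.98% of 10655 genes higher. Tbx21 was past 2-fold lower, 46.0 CPM and 18.0 CPM, beside 17.1% lower. Cells with Cd4 only were 77 of these 363 Ctrl cells and 127 of 286 AD cells. The part of this makeup in the ratio was not tested. In the Foxp3-negative cells with Cd4 only, none of 7 genes tested was past 2-fold in either direction, beside 6.15% of 6940 genes higher and 14.2% lower, 20.4% in all. Tnfrsf4 was 318 CPM in Ctrl and 593 CPM in AD, a ratio of 1.87 (1.51 to 2.33), and Gata3 282 CPM and 452 CPM, a ratio of 1.60 (1.28 to 2.03). Ctla4 was lower in AD in these cells, 484 CPM and 339 CPM, a ratio of 0.700 (0.579 to 0.850), as was Rora, 1184 CPM and 773 CPM.

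In the cells with Cd8 only, all 5 receptors were past 2-fold higher in AD, of 8 genes tested, beside 4.24% of 7262 genes past 2-fold higher. Ctla4 had 17 UMIs in 13 of 120 Ctrl cells, or 22.6 CPM, and 116 UMIs in 31 of 63 AD cells, or 215 CPM, a ratio of 9.52 (5.70 to 16.9). Tnfrsf4 had 9 UMIs in 7 Ctrl cells, or 12.0 CPM, and 72 UMIs in 23 AD cells, or 134 CPM, a ratio of 11.2 (5.57 to 25.4). Il2ra had 5 UMIs in 5 Ctrl cells and 32 UMIs in 12 AD cells, 10 of them in 1 cell. Thinned shares of cells were 2.69% and 15.97% for Ctla4, 1.19% and 10.4% for Tnfrsf4, and 0.941% and 3.84% for Il2ra. Icos was 330 CPM and 675 CPM, and Tnfrsf18 was 50.5 CPM and 108 CPM. The AD levels of Ctla4 and Tnfrsf4 in the cells with Cd8 only remained below the 339 CPM and 593 CPM of the AD cells with Cd4 only. Tbx21 was past 2-fold lower, with 73.1 CPM from 55 UMIs and 33.4 CPM from 18 UMIs, beside 15.4% of all genes. In the cells with neither Cd4 nor Cd8, none of 8 genes tested was past 2-fold, beside 4.8% of 7914 genes higher and 15.8% lower, 20.6% in all. Tnfrsf4 was 111 CPM and 147 CPM there, a ratio of 1.33 whose interval covers 1 (0.986 to 1.78).

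**Figure D4:**
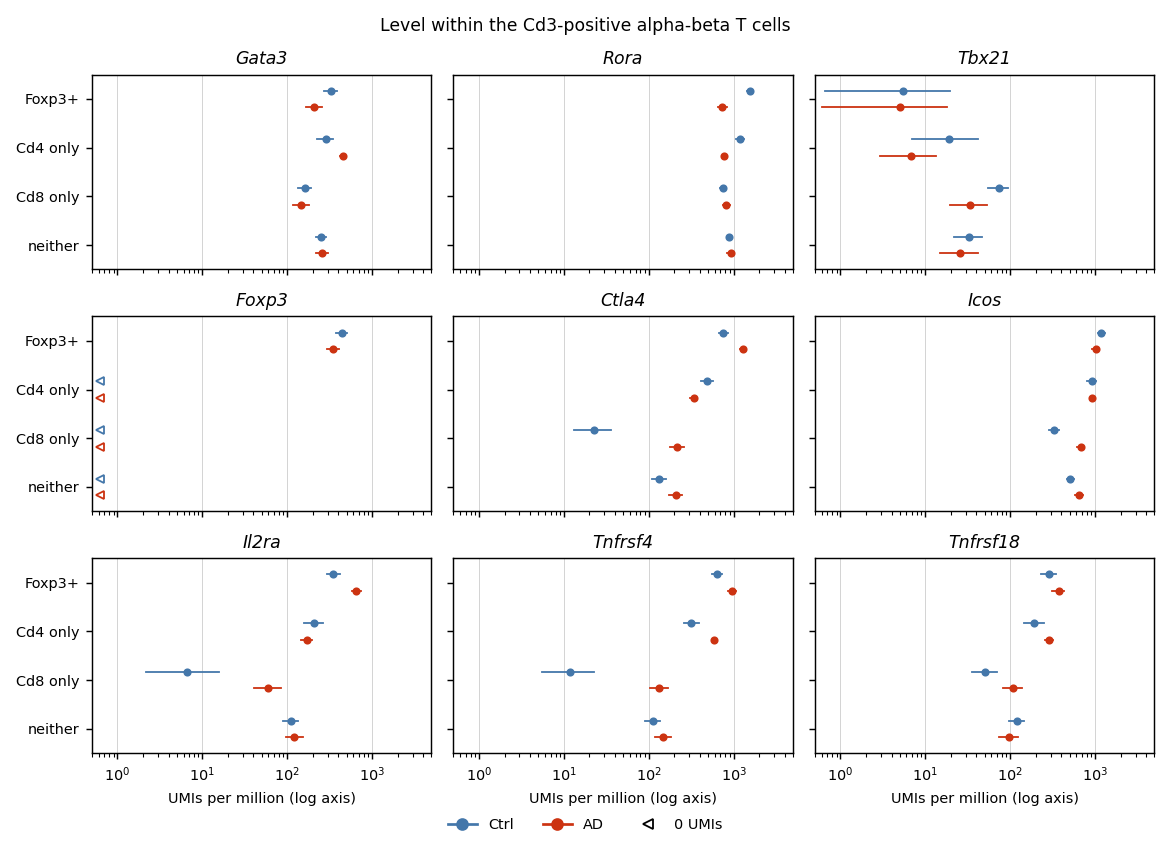
Level of each gene in CPM (log axis) within the Cd3-positive alpha-beta T cells, split by UMIs of Foxp3, Cd4 and Cd8, with Ctrl in blue and AD in red, bars for 95% Poisson intervals and open triangles for 0 UMIs. In cells with Cd8 only, Ctla4 was 22.6 CPM in Ctrl and 215 CPM in AD and Tnfrsf4 12.0 CPM and 134 CPM, while Foxp3 is set to 0 outside the top line by the split itself.

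In the gamma-delta T gate, 4 of the 8 genes tested were past 2-fold higher in AD and none was lower, beside 5.03% of 10090 genes higher and 16.6% lower. Il2ra was 97.7 CPM from 189 UMIs in Ctrl and 245 CPM from 169 UMIs in AD, a ratio of 2.505 (2.02 to 3.099). Icos was 196 CPM and 430 CPM, a ratio of 2.20 (1.88 to 2.56). Thinned shares of cells were 11.5% and 19.9% for Il2ra and 17.7% and 27.4% for Icos. Ctla4 had 44 UMIs in 8 of 328 Ctrl cells and 43 UMIs in 12 of 133 AD cells, a ratio of 2.74 (1.76 to 4.27), so that its level rested on few cells. Tnfrsf4 had 10 UMIs in 5 Ctrl cells and 45 UMIs in 7 AD cells, 17 of them in 1 cell, a ratio of 12.6 (6.26 to 28.1). Of these 45 AD UMIs, 41 were in cells that also held a Trac UMI, the constant chain of the alpha-beta receptor. Such cells numbered 34 in Ctrl and 27 in AD, and among them Tnfrsf4 alone of 7 genes tested was past 2-fold higher and none was lower, beside 8.07% of 3282 genes higher and 8.81% lower.

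Without the Trac-positive cells, Tnfrsf4 had 4 UMIs in 294 Ctrl cells and 4 UMIs in 106 AD cells, a ratio of 3.67 whose interval covers 1 (0.684 to 19.7). Il2ra (2.37, 1.83 to 3.05) and Icos (2.12, 1.75 to 2.55) stayed past 2-fold higher, as did Ctla4 (2.52, 1.06 to 5.79) on 16 and 11 UMIs, beside 5.75% of 9699 genes higher and 19.2% lower. Tbx21 had 29 UMIs in Ctrl and 1 UMI in AD, a ratio of 0.127 (0.00310 to 0.763), but in the Cd3-positive gamma-delta T cells it had 14 and 6 UMIs, or 10.6 CPM and 11.05 CPM (ratio 1.04, 0.329 to 2.89). The Cd3-negative cells of the gate, 63 in Ctrl and 28 in AD, held 17 of its 31 Ctrl UMIs. In Ctrl these cells led with Ccl5, Gzma, Xcl1, Klra4 and Klra8, genes known from natural killer cells, and in AD with Trdc, Saa3, Rgs1 and Il17a. Their 6 gamma-delta markers summed to 49.2 CPM in Ctrl and 360 CPM in AD, and their 3 natural killer markers to 73.8 CPM and 20.4 CPM. Their part in the Tbx21 values was not tested. With a Cd3 UMI required in place of the Trac split, Icos was at 1.75 and no longer past 2-fold. The gamma-delta gate held its own receptor genes in both libraries, with 6 markers that summed to 939 CPM in Ctrl and 865 CPM in AD and none at 0. The 4 fibroblast markers summed to 11085 CPM and 2502 CPM and the 4 KC markers to 2786 CPM and 117 CPM, with Krt1 at 0 in AD, and their part in the results was not tested.

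In the Cd3-negative Il7r-positive cells Gata3 and 3 of the receptors were lower in AD. Of 7 genes tested, 4 were past 2-fold lower in AD and none was higher, beside 11.6% of 2858 genes lower and 9.8% higher, 21.4% in all. Gata3 had 104 UMIs in 27 of 48 Ctrl cells, or 685 CPM, and 54 UMIs in 23 of 52 AD cells, or 257 CPM, a ratio of 0.376 (0.265 to 0.527). Tnfrsf4 had 25 UMIs in 11 Ctrl cells and 6 UMIs in 5 AD cells, a ratio of 0.174 (0.0582 to 0.433). Ctla4 had 25 UMIs in 11 Ctrl cells and 8 UMIs in 6 AD cells, a ratio of 0.231 (0.0902 to 0.529), and Tnfrsf18 had 25 and 15 UMIs, a ratio of 0.434 (0.213 to 0.856). Icos was 388 CPM and 400 CPM, and Il2ra was 290 CPM and 195 CPM with overlapping intervals. Foxp3 had 7 UMIs in Ctrl and 1 in AD, and Tbx21 1 and 6, too few for a comparison.

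The makeup of this gate differed between the libraries. Among 6 innate lymphoid markers, Areg had a UMI in 50% of the cells in Ctrl and 13.5% in AD, Il1rl1 (the IL33 receptor) in 29.2% and 34.6%, and Nmur1 was at 0 in both. The genes that led the AD cells included Mcpt8, Hdc, Il4 and Ccl3, genes of basophils among others, and 15 AD cells against 2 Ctrl cells had at least 2 UMIs of the basophil genes Mcpt8, Cd200r3, Hdc and Gata2. In Ctrl the leading genes included the haemoglobin genes Hbb-bs and Hba-a1. Without the basophil-gene cells, which were set apart only once the data had been seen and left 46 and 37 cells, Gata3 was 705 CPM and 416 CPM, a ratio of 0.590 (0.417 to 0.828) within 2-fold, and Rora was 1478 CPM and 1589 CPM. Ctla4 (0.364, 0.142 to 0.832) and Tnfrsf4 (0.227, 0.0680 to 0.605) stayed past 2-fold lower, beside 8.96% of 2422 genes lower and 9.21% higher. Of the 8 T cell markers, 4 were at 0 in Ctrl and 5 in AD, the 3 Cd3 genes by the gate, and they summed to 309 CPM and 57.1 CPM. Their part in these ratios was not tested.

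The 63 partner genes of the 9 were counted in the same way. Their lists were type 2, type 1 and cytotoxic, type 17, regulatory, activation and checkpoint, resting and circulating, IL2 receptor and signalling, and lineage factors. In the Cd3-positive alpha-beta T cells 60 could be tested, of which 10 were past 2-fold higher and 12 lower, beside the 2.85% and 16.7% of all genes. In the gate as stated 33 were higher and 1, Zbtb7b, was lower, beside 10.2% and 15.8% of all genes. In gamma-delta T cells 8 of 49 were higher and 5 lower, the latter Lrrc32, Ccr6, Eomes, Lag3 and Lef1, beside 5.03% and 16.6% of all genes. In Cd3-negative Il7r-positive cells 5 of 29 were higher, Il4, Il13, Gzmb, Pdcd1 and Havcr2, and 7 lower, beside 9.8% and 11.6%. Without the basophil-gene cells 2 of 24 were higher, Pdcd1 and Zbtb16, and 6 lower, beside 9.21% and 8.96%, and Il4 and Il13 were under the 20 UMIs needed. The type 2 genes Il1rl1 and Areg were among the 6.

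Of the type 2 list, 3 of 8 genes tested were higher and 2 lower in the Cd3-positive set, with a median log2 ratio of 0.01. Il4, the cytokine that acts upstream of Gata3 in helper T cells, had 5 UMIs in Ctrl and 182 in AD, or 2.15 CPM and 66.6 CPM, a ratio of 30.9 (13.0 to 96.4). Il13 was 6.46 CPM and 37.0 CPM, and the chemokine receptor Ccr4 was 29.3 CPM and 72.4 CPM. Areg, a growth factor made by Tregs and innate cells, was 200 CPM and 68.8 CPM, and Klrg1 24.5 CPM and 5.49 CPM. Il1rl1 was 83.1 CPM and 82.3 CPM.

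Of the type 1 and cytotoxic list, none of 8 was higher and 4 were lower, with a median of -0.97. Ccl5 was 457 CPM in Ctrl and 182 CPM in AD, Nkg7 360 CPM and 173 CPM, Ifng 130 CPM and 61.1 CPM, and Eomes 6.03 CPM and 2.20 CPM, while Gzmb, a granzyme of cytotoxic cells, was 113 CPM and 206 CPM. Tbx21, the factor of this type, was lower alongside them. Of the type 17 list, none of 8 was higher and 4 were lower, among them Ccr6 (26.7 CPM and 5.49 CPM), Il17f (20.7 CPM and 3.29 CPM) and Blk (12.1 CPM and 2.93 CPM). Il17a was 40.0 CPM and 57.4 CPM and Maf 394 CPM and 273 CPM.

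Of the regulatory list, none of 8 was higher and 1 was lower, Itgae (CD103, an integrin of resident T cells), with 337 CPM in Ctrl and 130 CPM in AD. Ikzf2 (Helios) was 803 CPM and 416 CPM. Of the activation and checkpoint list, 3 of 9 were higher, Pdcd1 (PD-1, 26.3 CPM and 113 CPM), Lag3 (5.16 CPM and 20.9 CPM) and Tnfrsf9 (4-1BB, 84.8 CPM and 204 CPM), and Cd44 was lower (446 CPM and 206 CPM). Cd28 was 393 CPM and 506 CPM and Cd69 549 CPM and 608 CPM. Of the resting and circulating list, 4 of 6 were higher, among them Ccr7 (15.1 CPM and 116 CPM), Lef1 (25.8 CPM and 83.8 CPM) and S1pr1 (16.4 CPM and 60.4 CPM), genes of T cells that move between blood and lymph nodes. Of the IL2 receptor and signalling list, none of 7 was past 2-fold, with Il2rb at 258 CPM and 317 CPM and Il2rg at 179 CPM and 167 CPM. None of the 6 other lineage factors was past 2-fold either, with Bcl11b at 341 CPM and 270 CPM.

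The ligands of the receptors were looked up in the same libraries. In AD, Tnfsf4 (OX40L) was found mainly in mature dendritic cells, the cells that carry antigen to lymph nodes. It had 5 UMIs, all in 1 of 33 such cells in Ctrl, or 14.3 CPM, and 79 UMIs in 11 of 35 cells in AD, or 148 CPM (117 to 185). Those were 35.7% and 83.2% of all its UMIs in each library. Cd86 was 68.8 CPM and 564 CPM in mature dendritic cells, and 185 CPM and 224 CPM in other myeloid cells. Cd80 was 91.8 CPM and 229 CPM in mature dendritic cells, and 33.4 CPM and 34.2 CPM in other myeloid cells. Icosl was 60.2 CPM and 37.5 CPM in mature dendritic cells, with overlapping intervals. Fibroblasts held 72.0% of its UMIs in Ctrl, at 25.8 CPM, and cells in no gate with Pdgfra or Pdgfrb held 50.7% in AD, at 17.7 CPM. Tnfsf18, the ligand of GITR, was near the limit of detection, with 125 UMIs or fewer in a library and 2.05 CPM in Ctrl fibroblasts. Il2 was 33.1 CPM and 35.9 CPM in the Cd3-positive alpha-beta T cells, with 77 UMIs in 51 Ctrl cells and 98 UMIs in 25 AD cells.

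The 18 sums used here (9 classes, 2 libraries) share libraries, depth and the gates. Their alpha-beta class was the gate as stated, with its cells without Cd3. Among 4331 genes, those most like each member were found by Pearson's r of log2(CPM + 10) across the sums, as a description. For Ctla4 these were Cd28 (0.979), Cd6 (0.971) and Cd5 (0.969), and for Icos they included Skap1 (0.9747) and Ptprcap (0.960). For Il2ra they were Ltb (0.969), Il2rb (0.955), which encodes the beta chain of the IL2 receptor, and Ikzf3 (0.954). Foxp3 was most like Cd6 (0.936), Cd5 (0.931) and Cd27 (0.931), and Tbx21 most like Txk (0.934), Ikzf3 (0.906) and Ctsw (0.900). For Tnfrsf4 these were its neighbour Tnfrsf18 (0.891), Tnfrsf9 (0.836) and the ribosomal gene Rps24 (0.832), and for Tnfrsf18 they were Rps24 (0.927), Tnfrsf4 (0.891) and Rpl27 (0.868). Gata3 was most like Hacd3 (0.907), D16Ertd472e (0.889) and Ikzf2 (0.889), and Rora most like Septin1 (0.907), Atp2b4 (0.887) and Birc6 (0.886).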

How the data were processed

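For each library the authors deposited a matrix of counts, each value being how many UMIs 1 gene had in 1 cell barcode, from 10x 3′ libraries aligned to mm10, without normalization. The matrix header names Cell Ranger 5.0.0 and the submitters' processing notes name Cell Ranger 3.1.0 and Seurat 5.0, so the version is uncertain. No column of a sample outside the series was present. The Ctrl matrix held 125184653 UMIs in 12598 barcodes and the AD matrix 76106062 UMIs in 8778 barcodes.

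A cell was kept if it had between 200 and 6000 genes and no more than 10% of its UMIs were mitochondrial. They were gated in order: gamma-delta T, alpha-beta T, Cd3-negative Il7r-positive (Ptprc present, Pdgfra absent, under 5% of UMIs from collagen and keratin genes, under 3 myeloid UMIs, no mast or B cell profile), mast, mature dendritic, other myeloid, endothelial, KC and fibroblast, and all others were left in no gate. Doublets were kept. Scrublet, run through scanpy 1.11.5 (anndata 0.12.19), called 395 of 11399 Ctrl cells and none in AD, so its calls were not used. Levels are CPM of the summed UMIs of a class (Python 3.11.15, numpy 2.4.6, scipy 1.17.1, matplotlib 3.10.9). A gene was counted past 2-fold on the scale of log2(CPM + 1) when it had at least 20 UMIs over both libraries of the class, while printed ratios add nothing. Intervals are 95%: exact Poisson for levels, exact conditional binomial for ratios and exact Clopper-Pearson for shares of cells. UMIs of 1 gene in 1 cell are not independent draws, so the intervals are too narrow as a measure of biology. The scripts were tested on simulated data. TMM factors came from edgeR 4.0.16 (R 4.3.3) as an alternative scaling only. Coordinates are from GENCODE M21 for GRCm38, and promoter windows from RefSeq.

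All 9 genes are named in every class, with the 6 ligands, the 4 partner genes of each list with the most UMIs in the alpha-beta gate and those in a count of 5 or fewer, and the 3 most alike genes. Some genes that this rule names are not reported here. The 9 genes, the lists and the gates were chosen with earlier results of these data known. The splits by Cd3, Trac, Foxp3, Cd4, Cd8 and basophil genes, other than the Cd3 requirement itself, were chosen after seeing the data.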

Additional observations from a re-analysis of the deposited data

Results flagged for a closer look

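For 6 of the genes, the log2 ratio of AD over Ctrl had opposite signs in different classes of lymphocytes, with counting intervals on either side of 0. With 1 library per condition the difference between classes was not tested. Ctla4 was -2.11 in Cd3-negative Il7r-positive cells, 0.80 in Cd3-positive alpha-beta T cells and 1.18 in Cd3-positive gamma-delta T cells. Tnfrsf4 was -2.53, 1.26 and 3.61 in the same order, and Gata3 was -1.41, 0.39 and 0.65. Tnfrsf18 was -1.20 in Cd3-negative Il7r-positive cells and 0.73 in Cd3-positive alpha-beta T cells. Rora was 0.36 in Cd3-positive gamma-delta T cells, against -0.29 in Cd3-positive alpha-beta T cells and -0.48 in Cd3-negative Il7r-positive cells. With TMM scaling, Rora in the Cd3-positive alpha-beta T cells was -0.02, so that its sign there depends on the scaling. The Cd3-positive gamma-delta T cells were not scaled that way. The Cd3-negative Il7r-positive values include 15 AD cells and 2 Ctrl cells with basophil genes. Without these, Rora was 0.10 and Tnfrsf18 -0.65, both with intervals that cover 0, so that the opposite sign of these genes in this class was not kept beyond counting error. The gamma-delta value of Tnfrsf4 rests on 7 AD cells.

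Within the Cd3-positive alpha-beta T cells, Ctla4 was -0.51 in Foxp3-negative cells with Cd4 only, against 3.25 in those with Cd8 only and 0.76 in Foxp3-positive cells. Gata3 was 0.68 in cells with Cd4 only and -0.63 in Foxp3-positive cells. Icos was 1.03 in cells with Cd8 only and -0.21 in Foxp3-positive cells. These sets are split by detected UMIs at unlike depth in the libraries, and the part of depth was not tested. TMM scaling was not applied to these sets, so the part of scaling in the smaller values was not tested either.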

How the results depend on the processing

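The alternatives changed the cells, the scaling or the filter one at a time, except for 1 that required Cd3 and used TMM scaling together. In the alpha-beta gate, 6 genes were past 2-fold higher and 0 lower. With a Cd3 UMI required, or with a Trac UMI required, 1 was higher (Tnfrsf4) and 1 lower (Tbx21), with Cd3 and TMM scaling together 2 were higher, and with the mean of single-cell CPM in place of the sum 1 was higher. The log2 ratio of Foxp3 turned from 1.21 to -0.43 with Cd3 required, -0.54 with Trac required, -0.17 with Cd3 and TMM scaling and -0.13 with the mean over cells. The Trac requirement and the combination with TMM were chosen after seeing the data. In gamma-delta T cells the 4 past 2-fold became 2 with the mean over cells (Tbx21 and Tnfrsf4). In Cd3-negative Il7r-positive cells the 4 past 2-fold became 2 without basophil-gene cells and 1 (Gata3) with a minimum of 50 UMIs, where 4 genes were tested. TMM scaling there moved the share of higher genes among all past 2-fold from 45.8% to 62.2%. Under the remaining alternatives the counts were within 1.5 times of these. Of 301 log2 ratios of single genes, 231 stayed within their counting interval, 66 moved beyond it and 4, those of Foxp3, turned. Of 18 thinned differences in share of cells 10 moved.

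The doublet calls planned as an alternative were not run, as Scrublet made none in AD. Leaving out the highest 5% of doublet scores in each library, chosen after seeing the data, kept all 4 counts. No paired analysis was possible because each condition has 1 library, and no replicate was left out. Depth limits Foxp3 and Tbx21 outside alpha-beta T cells, Tnfrsf4 in gamma-delta T cells and all 9 genes in the 48 and 52 Cd3-negative Il7r-positive cells.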

Other observations

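Cells in no gate that had a Cd3 UMI but fewer than 2 receptor UMIs (135 in Ctrl, 82 in AD) also held these genes. Tnfrsf4 was 206 CPM in Ctrl and 56.1 CPM in AD, Ctla4 355 CPM and 230 CPM, Icos 599 CPM and 316 CPM, and Foxp3 101 CPM and 15.3 CPM. The median depth of these cells was 2594 UMIs in Ctrl and 3561.5 UMIs in AD. The order of Tnfrsf4 and Ctla4 between the libraries was thus the opposite of that in the Cd3-positive alpha-beta T cells, and how many of these cells belong with the latter was not tested.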
